A study of Homo sapiens with 2 samples.

Results

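The caveolar coat genes CAV1, CAV2, CAVIN1, CAVIN2, CAVIN3 and EHD2 were measured in 2 human melanoma cell lines. They were taken by gene symbol from the platform annotation, which lists CAVIN1, CAVIN2 and CAVIN3 under these names and was also searched for the former PTRF, SDPR and PRKCDBP. This gave 6 of 19775 genes with a named probe set, and 14 probe sets, each with a single symbol. IGR37 was grown from a lymph node metastasis and IGR39 from an achromic primary cutaneous tumour, and both are known to derive from the same patient. Both were untreated cultures in DMEM with serum, without any transgene or treatment named in the labels, and each line gave 1 RNA sample on 1 Affymetrix U133 Plus 2.0 array. There was therefore no replicate, no test could be made, and every difference is the RMA level on the log2 scale in IGR37 minus that in IGR39, for these 2 cultures only. A difference of -1 is 2-fold lower in IGR37.

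Caveolae are flask-shaped pits of the plasma membrane, rich in cholesterol, that buffer membrane tension and organise signalling. Caveolins are hairpin membrane proteins that form the bulb, cavins are cytoplasmic proteins that coat it, and EHD2 is an ATPase that assembles at the neck and holds the pit at the surface. Adipocytes, endothelial cells and muscle cells are especially rich in caveolae, and tumour cell lines vary widely in caveolin content. CAV1 and CAV2 are neighbours on chromosome 7, while CAVIN1 lies on chromosome 17, CAVIN2 on chromosome 2, CAVIN3 on chromosome 11 and EHD2 on chromosome 19.

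The DNA before the annotated starts is shown for CAV1, CAV2 and EHD2, which were lower in IGR37, and for CAVIN2, near background in both lines. This lets their base composition be compared. CAVIN1 and CAVIN3 were also lower in IGR37, but no window was available for them. Each sequence is the 250 bases before the first start listed for the gene in RefSeq (GRCh38.p14), written 5′ to 3′ on the gene's strand, with every CpG in capitals. The windows are chr7:116524759-116525008 on the plus strand for CAV1, chr7:116499488-116499737 on the plus strand for CAV2, chr19:47713172-47713421 on the plus strand for EHD2 and chr2:191847089-191847338 on the minus strand for CAVIN2.
CAV1: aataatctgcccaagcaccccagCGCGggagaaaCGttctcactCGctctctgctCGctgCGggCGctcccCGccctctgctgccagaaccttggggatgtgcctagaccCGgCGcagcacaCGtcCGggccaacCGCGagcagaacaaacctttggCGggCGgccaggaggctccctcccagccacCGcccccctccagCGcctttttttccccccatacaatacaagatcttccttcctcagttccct
CAV2: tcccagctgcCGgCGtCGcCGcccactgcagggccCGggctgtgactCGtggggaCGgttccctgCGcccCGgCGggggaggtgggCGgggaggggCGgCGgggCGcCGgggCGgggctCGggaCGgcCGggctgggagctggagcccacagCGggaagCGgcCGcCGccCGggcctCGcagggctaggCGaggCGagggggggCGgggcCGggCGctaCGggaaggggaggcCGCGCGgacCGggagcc
EHD2: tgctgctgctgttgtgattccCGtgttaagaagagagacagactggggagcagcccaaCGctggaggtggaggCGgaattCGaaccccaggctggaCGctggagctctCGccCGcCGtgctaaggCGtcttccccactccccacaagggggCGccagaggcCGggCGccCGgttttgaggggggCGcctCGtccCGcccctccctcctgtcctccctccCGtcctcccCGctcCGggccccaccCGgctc
CAVIN2: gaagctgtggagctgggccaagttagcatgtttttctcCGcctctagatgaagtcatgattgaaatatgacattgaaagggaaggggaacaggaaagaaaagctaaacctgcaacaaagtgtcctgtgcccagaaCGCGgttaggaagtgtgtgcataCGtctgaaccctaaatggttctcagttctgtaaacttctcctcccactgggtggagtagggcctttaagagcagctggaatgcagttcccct

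The CAV2 window held 35 CpG and was 83.2% G or C, and 5.8% of 35116 windows of this length held as many CpG. The EHD2 window held 20 CpG and the CAV1 window 18, with 32.4% and 36.8% of windows holding as many. The CAVIN2 window held 4 CpG, a number that 70.7% of windows reached, and was 48.0% G or C. The median window held 11. Windows before the other listed starts, not shown, held 16 and 29 CpG for CAV1 and 27 for CAV2. CAV1, CAV2 and EHD2 thus had CpG counts above the median window and CAVIN2 a count below it, as a description of the reference sequence. The lower members CAVIN1 and CAVIN3 are not covered. Short motifs were searched on both strands, and were chosen with the values of the genes known. The GC box GGGCGG, which itself holds a CpG, was found 3 times for CAV1, 6 times for CAV2, 1 time for EHD2 and 0 times for CAVIN2, and 42.6% of windows hold it. GGAATG, the core bound by TEAD factors, was in the CAVIN2 window only, 1 time, and is in 11.9% of windows. TATAAA, the AP-1 site TGANTCA, the E-box CACGTG bound by MITF, which also holds a CpG, and the sterol element core CACNCCAC were in none of these 4 windows, and are in 10.7%, 6.57%, 6.34% and 4.87% of windows. A match is a run of letters and not a measured site, and the arrays hold no measurement of methylation or binding.

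The caveolar coat genes were lower in the metastasis line. At the probe set with the highest mean, 5 of the 6 genes stood at least 2-fold lower in IGR37, and 0 stood 2-fold higher. CAV1 and CAVIN1 were past 4-fold at every probe set and CAV2 at its brightest alone, with -1.79 at the mean of its probe sets. CAVIN2 was near background in both lines. Of the 8501 genes that reached log2 6 in either line, 9.5% were lower by 2-fold or more, 4.11% were lower by 4-fold or more and 11.4% were higher by 2-fold or more. CAVIN2 did not reach log2 6, and EHD2 reached it at this probe set through IGR39 alone. The other 4 members reached it in both lines, where 5.35% of 6931 genes were at least 2-fold lower. Over all 6 genes the median difference was -1.83, beside 0.0025 over all 19775 genes at any level.

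All 14 probe sets were lower in IGR37, by -4.59 to -0.11, and 11 of them were at least 2-fold lower. Among named probe sets at or above log2 6, 9.71% were at least 2-fold lower, and 49.4% of named probe sets at any level had a difference below 0. Of the 12 probe sets of the group at or above log2 6, 4 reached it through IGR39 alone, the line where they were higher, and so had to differ. The other 8 reached it in both lines, and 1 of these, the only EHD2 probe set among them, lay within 2-fold.

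**Figure D1:**
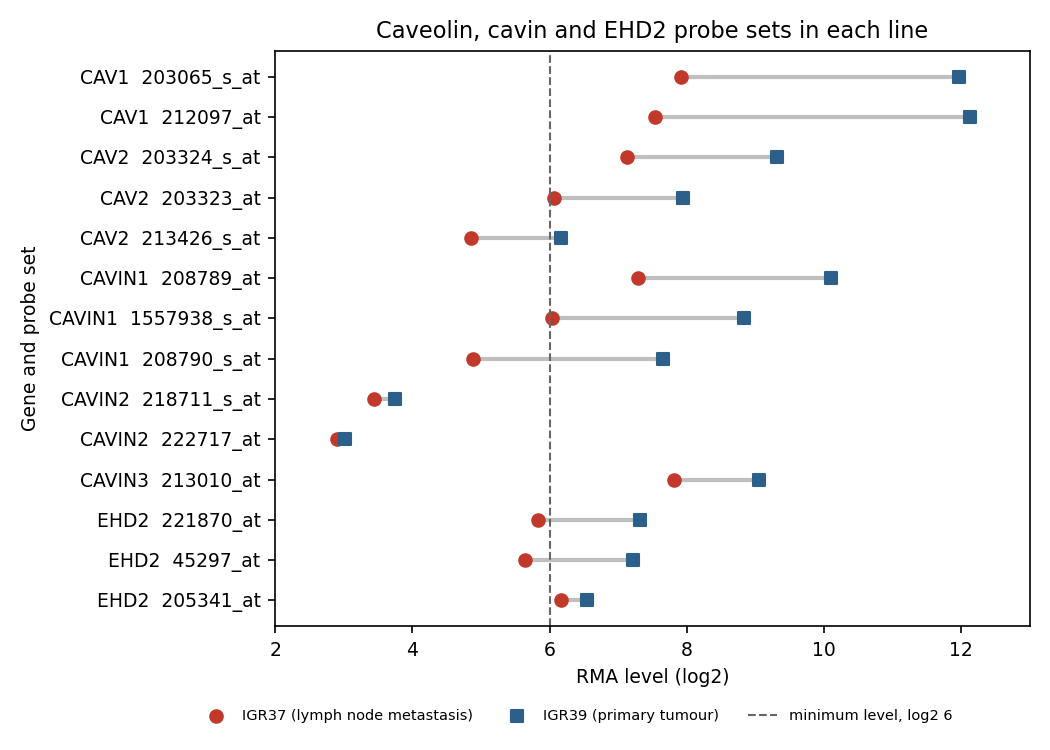
RMA levels on the log2 scale (horizontal axis) of the 14 probe sets of the 6 genes (rows), 1 array per line, with circles for IGR37, squares for IGR39 and a dashed line at log2 6. Every circle lies left of its square, with the longest distances for CAV1 (-4.04 and -4.59) and both CAVIN2 probe sets left of log2 4.

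Technical differences between the arrays were small beside those of CAV1, CAV2 and CAVIN1. Hybridisation spike-ins (18 probe sets) spanned -0.14 to 0.21 and poly-A spike-ins (24 probe sets) spanned -0.47 to 0.68. The differences of probe sets of the same gene, at or above log2 6, had a pooled SD of 0.40 over 3178 genes. This value measures how far probe sets of a gene disagree. For RNA integrity, the excess of 3′ over 5′ signal was 0.83 in IGR37 and 0.75 in IGR39 for ACTB, and 0.49 in IGR37 and 0.66 in IGR39 for GAPDH. None of these values covers the spread between cultures of a line. Among 15 genes often used as loading controls, 13 differed by under 2-fold, while GUSB (1.81) and TFRC (1.39) were higher in IGR37, with a median of -0.0175 over the list. The lowest were POLR2A at -0.52 and B2M at -0.41. The melanocyte markers went the other way from the caveolar genes: 7 of 7 named markers reached log2 6 in IGR37, against 1 of 7 in IGR39. MLANA was at 12.83 in IGR37 and 3.33 in IGR39, so the defining melanocyte markers, MITF apart, were near background in IGR39.

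CAV1 encodes caveolin-1, the structural protein without which non-muscle cells form no caveolae (gene 857). Its brightest probe set, 203065_s_at, was at 7.92 in IGR37 and 11.96 in IGR39, a difference of -4.04 or 16.5-fold lower. The second, 212097_at, was at 7.54 in IGR37 and 12.13 in IGR39, a difference of -4.59 or 24.1-fold lower. Both probe sets were thus very bright in IGR39 and clearly above log2 6 in IGR37, so neither line was near background. Of the 8501 genes, 0.894% had a difference as low or lower. Among the 6931 genes at or above log2 6 in both lines, CAV1 ranked 5 from the lowest difference. It lay just past a 16-fold limit, used for this count only, which 5 genes (0.0721%) reached. The other 4, named after their values were seen, were ANXA1 (-5.27), SPOCK1 (-4.98), IGFBP3 (-4.66) and IFITM2 (-4.22).

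CAV2 encodes caveolin-2, which forms mixed oligomers with caveolin-1 and needs it to leave the Golgi (gene 858). The brightest of its 3 probe sets, 203324_s_at, was at 7.13 in IGR37 and 9.32 in IGR39, a difference of -2.19 or 4.55-fold lower. Probe set 203323_at was at 6.06 in IGR37 and 7.94 in IGR39, a difference of -1.88. The dimmest, 213426_s_at, was at 4.85 in IGR37 and 6.16 in IGR39, a difference of -1.31. The size therefore varied with the probe set, by 0.88 from end to end, while the direction did not. At the brightest probe sets, the difference of CAV1 minus that of CAV2 was -1.86 on the log2 scale, and the smallest CAV1 difference (-4.04) lay beyond the largest CAV2 difference (-2.19).

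CAVIN1 encodes cavin-1, formerly PTRF, the coat protein required for caveolin to gather into pits (gene 284119). Its brightest probe set, 208789_at, was at 7.28 in IGR37 and 10.10 in IGR39, a difference of -2.81 or 7.03-fold lower. Probe set 1557938_s_at was at 6.04 in IGR37 and 8.83 in IGR39, and 208790_s_at was at 4.88 in IGR37 and 7.65 in IGR39. Their differences were -2.79 and -2.77. The 3 probe sets thus gave nearly the same difference although their levels lay far apart, with a range of 0.039 in the differences.

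CAVIN3 encodes cavin-3, formerly PRKCDBP or SRBC, a coat protein that binds protein kinase C delta (gene 112464). Its single probe set, 213010_at, was at 7.82 in IGR37 and 9.05 in IGR39, a difference of -1.23 or 2.35-fold lower. Of the 8501 genes, 7.54% had a difference as low as that of CAVIN3 or lower. The difference of CAVIN1 minus that of CAVIN3 was -1.58. No second probe set was there to check it.

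CAVIN2 encodes cavin-2, formerly SDPR, which binds phosphatidylserine and helps to shape and elongate caveolar membrane (gene 8436). Probe set 218711_s_at was at 3.44 in IGR37 and 3.75 in IGR39, and 222717_at was at 2.91 in IGR37 and 3.02 in IGR39. Both lines lay below the array medians of 4.14 in IGR37 and 4.17 in IGR39 at both probe sets. The differences of -0.31 and -0.11 are therefore between levels near background and say little about the gene.

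EHD2, the ATPase of the caveolar neck (gene 30846), gave 2 answers. Probe set 221870_at was at 5.84 in IGR37 and 7.31 in IGR39, a difference of -1.48 or 2.79-fold lower. Probe set 45297_at was at 5.65 in IGR37 and 7.22 in IGR39, a difference of -1.58. The third, 205341_at, was at 6.17 in IGR37 and 6.54 in IGR39, a difference of -0.38. The first 2 lay 0.098 apart on the log2 scale, while the third lay 1.10 or more from either, beyond the pooled SD of 0.40 within genes. At the mean of the 3 the difference was -1.14.

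**Figure D2:**
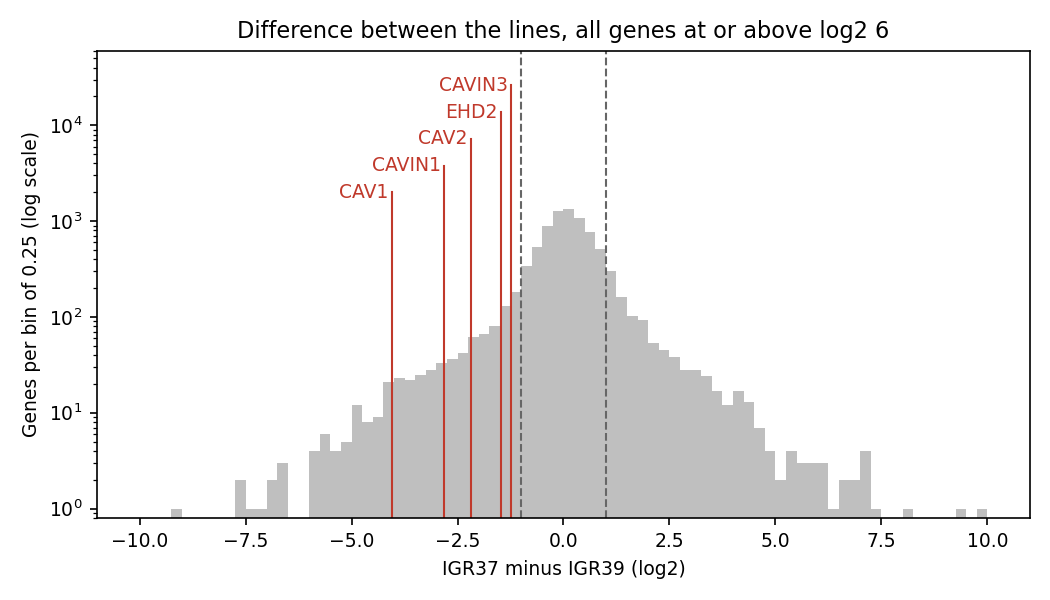
Number of genes (vertical axis, log scale) by difference IGR37 minus IGR39 (horizontal axis, log2, bins of 0.25) over 8501 genes at or above log2 6, with dashed lines at the 2-fold limits. Marked lines, whose heights carry no value, show the 5 caveolar genes at this level, all left of -1, with CAV1 at -4.04, CAVIN1 at -2.81 and CAV2 at -2.19.

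Relatives of the 6 genes were mostly dim or within 2-fold. Of 8 relatives, 4 reached log2 6, of which 1 was at least 2-fold lower, 0 were higher and 3 lay within 2-fold. The shares over all 8501 genes at this level were 9.5% lower and 11.4% higher by 2-fold or more. EHD3, a relative of EHD2 that acts on endosomes, was at 4.73 in IGR37 and 6.05 in IGR39, a difference of -1.33. It just reached log2 6, through IGR39 alone, and the mean over its 3 probe sets was within 2-fold, at -0.66. EHD1, which works in endocytic recycling, was at 7.33 in IGR37 and 8.20 in IGR39, and EHD4 at 7.92 in IGR37 and 8.61 in IGR39. All 3 relatives of EHD2 were thus lower in IGR37, and at these probe sets EHD3 alone passed 2-fold, although a second EHD4 probe set was at -1.17. PACSIN2, an F-BAR protein that bends caveolar membrane, was at 10.15 in IGR37 and 9.51 in IGR39, a difference of 0.64. The muscle forms CAV3, at 5.09 in IGR37 and 4.81 in IGR39, and CAVIN4, at 3.37 in IGR37 and 3.52 in IGR39, stayed below log2 6. So did PACSIN1, at 4.42 in IGR37 and 4.21 in IGR39, and PACSIN3, at 4.98 in IGR37 and 5.04 in IGR39. The median of the 4 relatives at this level was -0.78, beside 0.07 for all 8501 genes, and it depended on the probe sets and genes taken. Averaging the probe sets of each gene gave -0.089, the midpoint of EHD1 (-0.60) and PACSIN2 (0.43), as EHD3 and EHD4 no longer entered it. Dropping the minimum level gave -0.11 over all 8 relatives.

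Genes whose proteins act at or reside in caveolae were divided. Of 11 that reached log2 6, 2 were lower by 2-fold or more, 2 were higher by as much and 7 lay between, with a median of -0.13. Over all 8501 genes at this level, 9.5% were lower and 11.4% higher by 2-fold or more. MYOF, which encodes the membrane repair protein myoferlin, a partner of EHD2, was at 7.32 in IGR37 and 10.95 in IGR39, a difference of -3.63 with -3.47 at its second probe set. PRKCA, a protein kinase C that cavins bind, was at 3.98 in IGR37 and 7.70 in IGR39, with differences of -3.72 and -1.57 at 2 probe sets. FYN, a SRC family kinase, went the other way, at 8.71 in IGR37 and 5.44 in IGR39. SCARB1, the HDL receptor, was at 9.13 in IGR37 and 6.53 in IGR39. At these probe sets PRKCA reached log2 6 through IGR39 alone and FYN through IGR37 alone, in each case the line where it was higher. Means over all probe sets of a gene were smaller in size, at -2.71 for MYOF, -1.22 for PRKCA, 1.45 for FYN and 1.16 for SCARB1. SRC, the kinase that phosphorylates caveolin-1, was at 6.65 in IGR37 and 7.13 in IGR39, and DNM2, a dynamin that cuts membrane necks, was at 7.03 in IGR37 and 7.10 in IGR39. EHBP1, a binding partner of EHD proteins, was at 7.96 in IGR37 and 8.09 in IGR39.

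Clathrin coat genes mostly lay within 2-fold. Of 21 that reached log2 6, 0 were lower by 2-fold or more, 2 were higher by as much and 19 lay between, with a median of -0.19. Most of the 8501 genes at this level also lay between, with 9.5% lower and 11.4% higher. The clathrin heavy chain gene CLTC was at 12.22 in IGR37 and 12.03 in IGR39. The light chain gene CLTB was at 8.49 in IGR37 and 9.43 in IGR39, and AAK1, a kinase of the clathrin adaptor AP-2, was at 6.82 in IGR37 and 7.51 in IGR39, with differences of -0.94 and -0.69. DAB2, a clathrin adaptor for lipoprotein receptors, was at 10.03 in IGR37 and 7.50 in IGR39, and its 4 probe sets at this level differed by 1.79 to 2.61. EPS15, an early endocytic adaptor, was at 9.91 in IGR37 and 8.35 in IGR39, a difference of 1.57 with 0.80 at its second probe set.

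The flotillins, scaffold proteins of a further kind of membrane domain, lay within 2-fold in opposite directions at their brightest probe sets. FLOT1 was at 10.23 in IGR37 and 9.30 in IGR39, while FLOT2 was at 6.11 in IGR37 and 6.93 in IGR39. The FLOT2 difference was -0.82 there and -0.17 at the mean of its 2 probe sets. In the clathrin-independent carrier route (CLIC/GEEC), all 4 genes that reached log2 6 were within 2-fold, and their median was -0.093. The GTPase gene CDC42 was at 10.80 in IGR37 and 10.88 in IGR39, GBF1 at 6.79 in IGR37 and 6.89 in IGR39, BAIAP2 at 6.28 in IGR37 and 6.45 in IGR39, and ARF1 at 6.42 in IGR37 and 6.33 in IGR39. ARHGAP26, at 4.21 in IGR37 and 5.08 in IGR39, and ARHGAP10, at 5.46 in IGR37 and 5.10 in IGR39, were dimmer. These counts and medians describe the lists in these arrays, where 9.5% of all 8501 genes were lower and 11.4% higher by 2-fold or more. No difference between lists was tested.

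**Figure D3:**
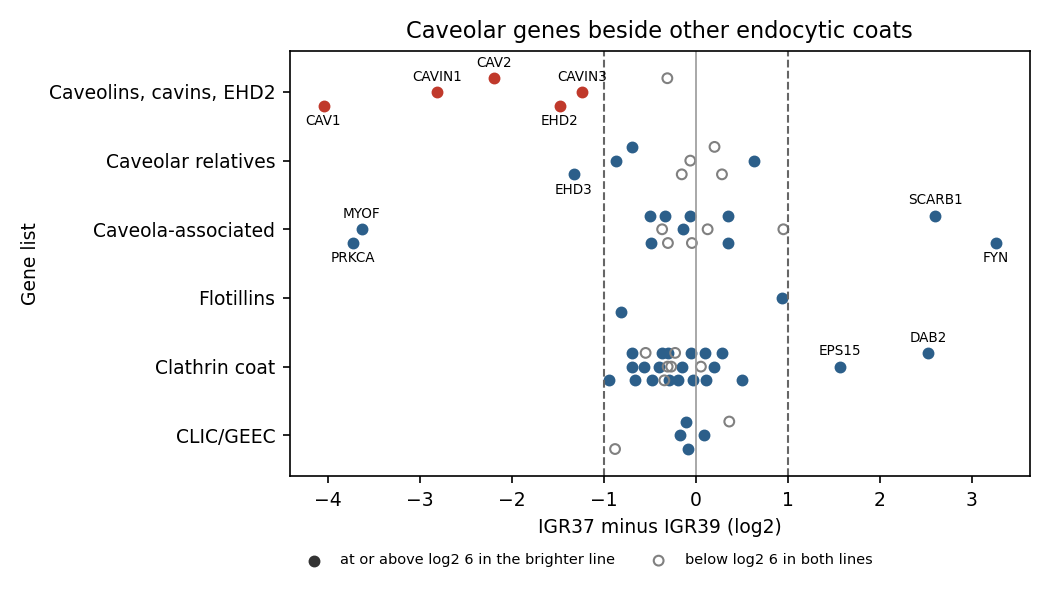
Differences IGR37 minus IGR39 on the log2 scale (horizontal axis) for the caveolar genes and 5 lists of related genes (rows), 1 point per gene at its brightest probe set, filled where the brighter line reached log2 6, with dashed lines at the 2-fold limits. The 5 filled caveolar points lie left of -1, while 19 of the 21 filled clathrin coat points lie between the limits and DAB2 and EPS15 lie to the right. Among all 8501 genes at this level, 9.5% were lower and 11.4% higher by 2-fold or more.

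Genes next to the caveolar genes on their chromosomes mostly lay within 2-fold. The 3 nearest protein-coding genes on each side, in RefSeq order, gave 27 named neighbours, of which 17 reached log2 6. Of these 17, 14 lay within 2-fold, 1 was lower by 2-fold or more and 2 were higher by as much, with a median of 0.16. Most of the 8501 genes at this level also lay within that limit, with 9.5% lower and 11.4% higher. The counts therefore do not set the neighbours apart from other genes. On chromosome 7, TES, which encodes a LIM protein of focal adhesions and lies on the CAV2 side, was at 6.70 in IGR37 and 8.10 in IGR39, a difference of -1.41. On the CAV1 side, the receptor tyrosine kinase gene MET was at 8.60 in IGR37 and 8.79 in IGR39, and CAPZA2, an actin capping subunit, was at 10.02 in IGR37 and 9.48 in IGR39. MDFIC, beyond TES, was at 8.96 in IGR37 and 8.51 in IGR39, and TFEC, at 3.01 in IGR37 and 3.22 in IGR39, was near background. The lower levels in IGR37 thus spanned TES, CAV2 and CAV1 in order and did not extend at 2-fold to MET.

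Around CAVIN1, neighbours were within 2-fold or higher in IGR37. STAT3, at 8.10 in IGR37 and 8.54 in IGR39, lay on one side, and ATP6V0A1, a subunit of the vacuolar proton pump, at 8.15 in IGR37 and 7.28 in IGR39, lay on the other. STAT5B was at 7.13 in IGR37 and 5.90 in IGR39, and the lysosomal enzyme gene NAGLU at 7.52 in IGR37 and 6.42 in IGR39, with differences of 1.22 and 1.10. STAT5B reached log2 6 through IGR37 alone, the line where it was higher. HSD17B1 was at 6.21 in IGR37 and 6.06 in IGR39, and STAT5A at 5.81 in IGR37 and 5.64 in IGR39. CAVIN1 at -2.81 thus stood among neighbours with differences of -0.43 to 1.22.

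Around CAVIN3, SMPD1, the acid sphingomyelinase gene, was at 7.68 in IGR37 and 6.99 in IGR39, APBB1 at 6.44 in IGR37 and 6.24 in IGR39, and HPX at 5.90 in IGR37 and 6.03 in IGR39. Around EHD2, NAPA was at 9.79 in IGR37 and 9.22 in IGR39, NOP53 at 6.42 in IGR37 and 6.61 in IGR39, and SELENOW at 9.51 in IGR37 and 9.76 in IGR39. Around CAVIN2, NABP1 was at 7.06 in IGR37 and 7.22 in IGR39 and SLC39A10 at 7.21 in IGR37 and 7.15 in IGR39. All 8 of these lay within 2-fold. The neighbours FHIP1B, CNGA4, CCKBR, ZNF541, BICRA, STAT4, TMEFF2 and DNAH7 stayed below log2 6 in both lines.

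**Figure D4:**
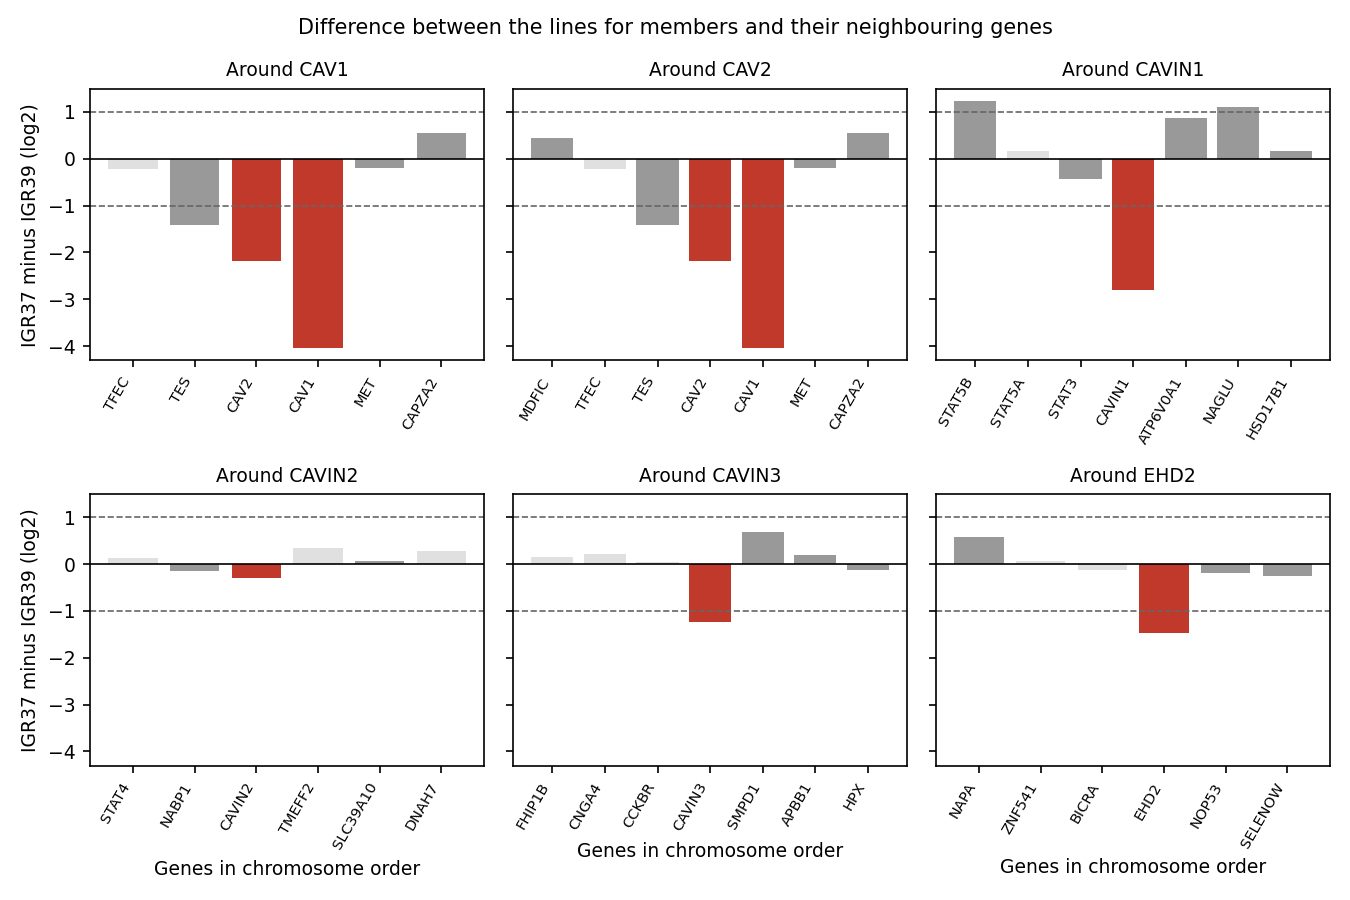
Differences IGR37 minus IGR39 on the log2 scale (vertical axis) for each caveolar gene and its named neighbours in chromosome order (horizontal axis, not to scale), with the caveolar genes in red, neighbours at or above log2 6 in dark grey and dimmer ones in light grey. TES (-1.41) is the neighbour below the lower 2-fold limit, and STAT5B (1.22) and NAGLU (1.10) are those above the upper one.

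The genes whose differences were nearest to those of CAV1 and CAVIN1 were taken over the 2 arrays, with the gap between differences as the measure of likeness. For CAV1 they were MVP, the major vault protein gene, with -4.04, KCNMA1, a potassium channel gene, with -4.05, and CCN2, a matricellular gene, with -4.06. CAV1 was above log2 6 in both lines, while MVP was at 5.48 in IGR37 and 9.52 in IGR39, KCNMA1 at 3.93 in IGR37 and 7.98 in IGR39, and CCN2 at 3.94 in IGR37, below that minimum too. For CAVIN1 they were PTPRE (-2.82), a tyrosine phosphatase gene, GBP3 (-2.80), a guanylate-binding protein gene, and SLC38A2 (-2.83), an amino acid transporter gene. With 2 arrays, a like difference says no more than that the lines stood equally far apart.

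Markers of cell types rich in caveolae were mostly at background in both lines. Of 10 endothelial markers, 0 reached log2 6, with values up to 4.81 in IGR37 and 4.98 in IGR39, and their levels summed on the linear scale to 177.9 in IGR37 and 179.5 in IGR39. Of 7 adipocyte markers, 1 reached it in IGR37 and 0 in IGR39, with LIPE at 6.16 in IGR37 and 5.59 in IGR39, and sums of 183.8 in IGR37 and 169.7 in IGR39. Of 8 smooth muscle markers, SMTN alone reached it, at 6.51 in IGR37 and 8.11 in IGR39, and the sums were 252.6 in IGR37 and 432.2 in IGR39. The defining markers MYH11 and DES were at 5.72 and 4.25 in IGR37, and at 5.71 and 4.14 in IGR39.

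Fibroblast markers were low and mixed. Of 9, 3 reached log2 6 in IGR37 and 2 in IGR39, with sums of 383.6 in IGR37 and 740.2 in IGR39. FAP, a surface protease gene, was at 6.83 in IGR37 and 8.85 in IGR39, COL1A2 at 3.84 in IGR37 and 6.27 in IGR39, and LUM at 6.26 in IGR37 and 3.41 in IGR39, while COL1A1 was at 6.15 in IGR37 and 5.87 in IGR39. The mean over the 5 probe sets of COL1A1 had the other sign, at -0.71. The defining markers DCN and PDGFRB were at 4.38 and 3.64 in IGR37, and at 4.57 and 3.81 in IGR39. Of 8 leukocyte markers, 0 reached log2 6, with values up to 4.14 in IGR37 and 4.07 in IGR39. The melanocyte markers summed to 29570 in IGR37 and 277.1 in IGR39, opposite in direction to the caveolar genes, and their part in the result was not tested. In a bulk culture, fewer cells that express a gene and less of its RNA in each cell cannot be told apart.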

How the data were processed

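The deposited log2 levels came from the authors' RMA run (package affy), as the submitters' processing notes list it. Versions and the set of arrays normalised together are not stated in these sources. RMA equalises the brightness of arrays and compresses differences between low levels. The platform annotation named the 54675 probe sets, and gene identifiers linked them to RefSeq symbols (GRCh38.p14). Those with no symbol or more than 1 were not used, and 0 of the ambiguous ones named a caveolar gene. Each gene was represented by its probe set with the highest mean, and counts used a minimum of log2 6 in the brighter line and a 2-fold limit. The sources give no counts, so 1 array per line limits the precision, and no test was run. Gene coordinates were used for order only; RefSeq promoter windows were matched by symbol for 4 of the 6 genes.

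The members and lists were chosen with earlier results of these data known. The rule for named genes took all members and probe sets, every gene of lists of 10 or fewer other than the marker lists, the 2 largest differences each way of longer lists, 3 neighbours on each side and the 3 nearest differences to CAV1 and CAVIN1. The marker lists are given by counts with a range or a sum, and by only some of their genes. A few further list genes (SRC, DNM2, EHBP1, CLTC and genes of the marker lists) were named after their values were seen. The code that counts 2-fold differences was tested on simulated data, which says nothing about the lines. Python 3.11.15, numpy 2.4.6, pandas 2.3.3, statsmodels 0.14.6 and matplotlib 3.10.9 were used.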

Additional observations from a re-analysis of the deposited data

How the results depend on the processing

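Each of 15 results was recomputed under up to 8 alternatives: the mean over probe sets, no probe sets ending in _s_at or _x_at, centring on array medians or housekeeping genes, subtraction of a lowess curve (span 0.3), and a minimum of log2 5, log2 7 or none. A value was held to have moved when it shifted by the pooled SD of 0.40 within genes or crossed the 2-fold limit, and a count when it differed by over 1.5 times. Of 102 recomputed values, 93 did not move and 9 moved, and no value past the 2-fold limit turned its sign. The differences of the 6 caveolar genes were below 0 in all 30 recomputations. The 12 with another choice of probe sets had to be below 0, because all 14 probe sets of the group were lower in IGR37. In 4 of these 12 the value could not differ because the same probe set was kept. CAV2 was within 4-fold in both of its 2 recomputations of this kind, at -1.79 and -1.88. The centring constants, -0.024 for array medians and -0.0175 for housekeeping genes, were too small to turn any of these signs. The 30 differences ranged from -4.59 to -4.02 for CAV1, from -2.28 to -1.79 for CAV2, from -2.93 to -2.79 for CAVIN1, from -1.34 to -1.21 for CAVIN3 and from -1.51 to -1.14 for EHD2. That of CAV1 moved without probe sets ending in _s_at or _x_at, to -4.59, which is its other probe set. With the mean over probe sets, the 2-fold counts over all genes were 503 lower and 588 higher, and the minimum then applied to the averages. The median of the caveolar relatives was -0.089 with that mean, -1.17 without _s_at and _x_at probe sets and -0.11 without a minimum. These 3 settings also changed which relatives entered the median. The flotillin median of 0.058, over 2 genes, became the value of FLOT1 alone with the mean (0.85) and at a minimum of log2 7 (0.93). Without _s_at and _x_at probe sets it was the value of FLOT2 alone, at -0.82. With the lowess curve subtracted, the flotillin median was -0.029. Causes of the differences between the lines were not tested. Differences of dim probe sets, such as those of CAVIN2, are limited by signal over background. No paired analysis was possible because each line has 1 array.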
